A study of Anguilla anguilla with 12 samples.

Results

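The 6 oocyte libraries described here are the ovarian samples taken before the final steroid was given, 3 before injection of DHP, a dihydroxylated progestin (libraries 3, 7 and 11), and 3 before injection of P, its precursor progesterone (libraries 1, 5 and 9), of 12 libraries in the whole series. They were chosen by their group names in the labels and in the headers of the count tables, and no measured value was used. The other 6 libraries hold eggs stripped after DHP (4, 8 and 12) or after P (2, 6 and 10) and serve only as a background. According to the methods, oocytes and eggs of an arm were sampled from the same 3 females. Egg values are therefore repeat samples of these animals and not independent observations. The labels give all groups as wild type and both oocyte groups as controls. All came from feminized female European eels: fed estradiol as elvers, put through a simulated migration, implanted with 17-methyltestosterone and estradiol, and brought to late oocyte growth with weekly carp pituitary extract. At the moment of sampling the females of both oocyte groups had therefore received the same kinds of hormone and no final steroid, and the comparison asks how far untreated groups of 3 females differ. Each oocyte library was made from oocytes picked from ovarian tissue of 1 female, drawn by cannula through the cloaca. The study describes the oocytes of its in vitro work as a mix of cells with and without their follicle. Marker genes were read here for the presence of follicle RNA. Each library pools oocytes, so marker genes cannot tell such a mix from oocytes that all kept part of their follicle.

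In a fish ovary each growing oocyte lies inside a follicle of granulosa cells, theca cells and small vessels. The follicle answers pituitary gonadotropins by making steroids, and the last of these, DHP in many fish, acts on the oocyte to resume meiosis. The oocyte itself is largely silent in transcription at that stage and lives on stored maternal messenger RNA. The egg keeps such RNA in part after ovulation, while the follicle is left behind. Genes of the follicle, of blood and of vessels in these libraries are therefore set beside the eggs. A low egg count alone does not show such an origin. The oocyte gene zar1l had 3527 to 8285 normalized counts in oocytes and 138 to 1173 counts in the egg libraries. In bulk samples fewer cells of a type and less RNA per cell cannot be told apart.

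The oocyte libraries before DHP held 6612347 to 9241120 counted fragments and those before P 7395154 to 9903122, and 19471 to 21378 genes had at least 1 count in a library. The 10 genes with the most fragments took 5.88% to 8.89% of a library, and ribosomal RNA genes 0.668% to 1.38%. Library 3, of the DHP group, stood apart from the other oocyte libraries, as described below, and results that rest on it are given per library. Values are normalized counts, meaning fragments scaled by TMM (trimmed mean of M-values) to a common library size, unless another unit is named. They are not divided by transcript length, so levels are compared between libraries and not between genes. A check for an oocyte library deposited more than once within its group found none, with a chi-square statistic per degree of freedom of at least 34.3 in each of the 6 pairs. Pairs across the groups were not checked in this way.

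No gene passed the test between oocytes before DHP and oocytes before P. With edgeR's quasi-likelihood test and an adjusted p under 0.01, 0 of 16153 genes (0%) were called, and the smallest adjusted p was 0.999. At an unadjusted p under 0.05 there were 494 genes (3.06%), 277 higher and 217 lower before DHP. All 3 libraries before DHP lay above all 3 before P in 603 genes (3.73%) and below them in 658 (4.07%). The median log2 fold change over all genes was 0.01, and its median size without the sign was 0.29. The limma-voom fit also called 0 genes (444 at an unadjusted p under 0.05), whereas DESeq2 called 10 (0.0619%), 5 in each direction.

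The absence of calls does not show that the groups were alike. The 95% interval of the log2 difference, taken from limma-voom, lay wholly within 1 log2 unit of 0 for 4212 genes, 26.1% of those tested. The median distance from the estimate to either end was 0.99 log2 units, so for a typical gene the interval reached about that far to each side. This is not the smallest difference that could be called at an adjusted p under 0.01, which was not estimated. Even the log2 fold change of 2.66 of LOC118233833 had an adjusted p of 0.999 in edgeR with 3 females a group.

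The genes with the smallest p are named next as the largest contrasts found between untreated groups, with none of them past the threshold in edgeR (adjusted p = 0.999 for each). The gene LOC118233833, annotated as MHC class I-related, spans positions 53269164 to 53280071 of chromosome 8 in the fAngAng1.pri assembly. Its values were 593, 802 and 1883 normalized counts before DHP, against 158, 209 and 150.4 before P. The groups did not overlap, with a log2 fold change of 2.66 ± 0.45 (SE) and an interval of 1.43 to 3.53. The eggs had 367, 1105 and 1779 counts after DHP and 110, 223 and 16 after P, so the gene was also higher in each DHP egg library than in each P egg library. These eggs are repeat samples of the same females and no independent observation of the arms.

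The natriuretic peptide receptor gene npr3, which encodes a clearance receptor for these vasoactive peptides in vertebrates, had 2064, 556 and 253 normalized counts before DHP, against 84.7, 87.4 and 143 before P. The lowest DHP library was above the highest P library, and the DHP libraries spread widely among themselves (log2 fold change 3.19 ± 0.70). All 6 egg libraries together held 5 counts of npr3. The galectin gene lgals17, of a family of sugar-binding proteins, had 213, 24.8 and 338 before DHP, against 6.74, 10.4 and 18.1 before P (4.03 ± 0.87), and library 7 lay close to the P libraries. LOC118221546, a hemicentin-1-like gene of an extracellular matrix protein family, had 124, 303 and 325 before DHP, against 59.7, 45.7 and 35.1 before P (2.41 ± 0.47). LOC118223081 encodes a zona pellucida protein of the egg envelope and had the narrowest spread of these genes: 1847, 2835 and 3105 before DHP, against 1238, 1135 and 1346 before P (1.07 ± 0.27).

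Among the genes with lower values before DHP, the smallest p belonged to LOC118235665, an alpha-2-macroglobulin-like gene on chromosome 9 from 19194353 to 19233088. Proteins of this family trap and inhibit proteases. It had 9.35, 31 and 28.3 normalized counts before DHP, against 295, 192 and 199 before P, a log2 fold change of -3.33 ± 0.53 with an interval of -4.78 to -2.21. The groups were far apart, and each was narrow compared with the gap between them. Other genes of the family lie near it on the same chromosome and could share reads with it, so its value is uncertain to that extent.

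The neighbouring uncharacterized genes LOC118221515 and LOC118221516 on chromosome 2 showed another pattern. LOC118221515 had 5.61, 22.3 and 17.8 before DHP, against 2072, 29.7 and 1431 before P. LOC118221516 had 5.61, 1.24 and 12.6 before DHP, against 3221, 11.2 and 2872 before P. Only libraries 1 and 9 held many fragments of either gene, and library 5 lay at the level of the DHP group. The fitted log2 fold changes of -6.28 ± 1.27 and -8.23 ± 1.67 thus rest on 2 of 3 libraries, and their intervals from limma-voom, -10.73 to 0.77 and -17.04 to 4.51, included 0. Without library 5, edgeR called these 2 genes and no other.

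The remaining genes of this group lay within a smaller range. For kiaa1522 the values were 66.4, 86.9 and 69.1 before DHP, against 249, 167 and 404 before P (-1.88 ± 0.42). For c9h11orf54 they were 139, 137 and 89 before DHP, against 445, 254 and 474 before P (-1.68 ± 0.37). In both genes the groups did not overlap. DESeq2 called 7 of these 10 genes (all but LOC118223081, kiaa1522 and c9h11orf54), and also ifit9, an interferon-induced gene, LOC118207797, annotated as a glutathione S-transferase, and LOC118230260. LOC118207797 had 13.1, 3.72 and 0 before DHP, against 105, 52.1 and 150.4 before P. Its eggs had 8, 23 and 0 counts after DHP and 133, 115 and 160 after P. In the same females, a gap between the arms in this enzyme gene was thus seen before either steroid was injected as well as after. The eggs, as repeat samples, do not add an independent observation.

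**Figure D1:**
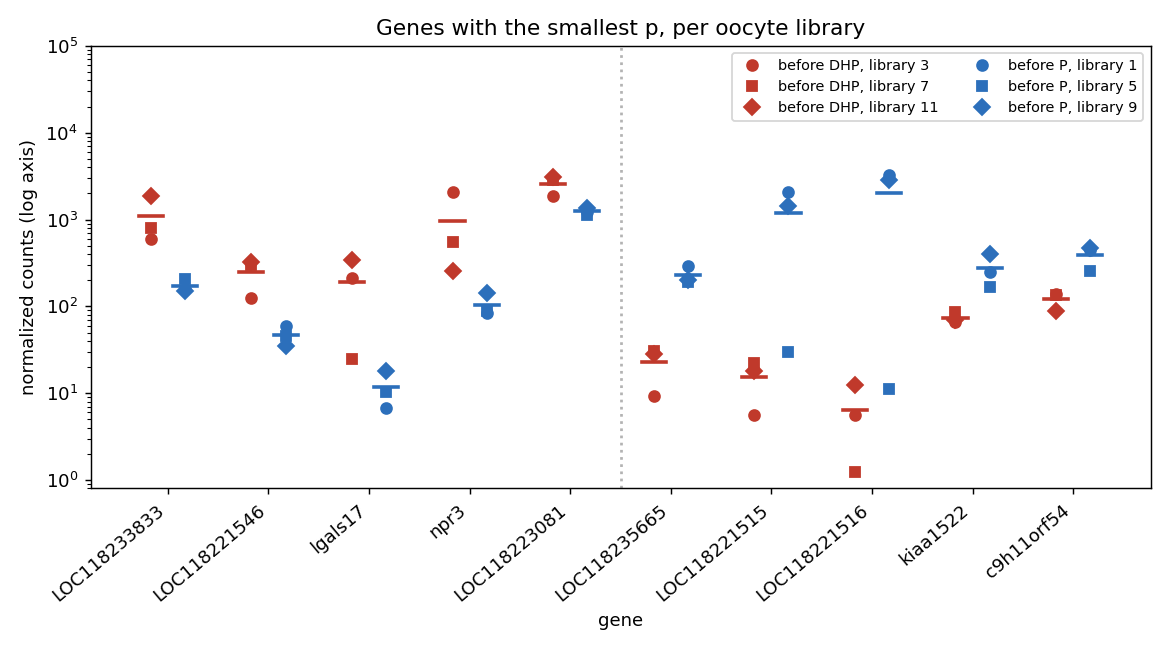
Normalized counts (log axis) in each oocyte library for the 5 genes with the smallest p in each direction, with the libraries before DHP left of those before P and a bar at each group mean. The groups do not overlap for 9 of the genes, whereas for LOC118221516 library 5, at 11.2, lies below DHP library 11, at 12.6. The genes were chosen for their small p in these same libraries, which favours groups without overlap. Of all genes 3.73% lay higher in all DHP libraries and 4.07% lower.

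The spread between females was then measured within the groups and across them. Over the 16153 genes, libraries of the same group differed by a median of 0.453 to 0.627 log2 units (6 pairs, mean 0.54 ± 0.06, SD) and libraries of different groups by 0.414 to 0.649 (9 pairs, mean 0.52 ± 0.08). Pairs across the groups were therefore as close as pairs within them, and the closest pair of all, libraries 7 and 9, crossed the groups. These pairs share libraries, so no test was made over them. Each female gave a single oocyte library. A difference between females therefore cannot be told apart from one in the cannula draw, the RNA quality or the library preparation. The 5 pairs with library 3 ranged from 0.521 to 0.649 and the 10 pairs without it from 0.414 to 0.547. Library 3 was the highest of the 6 in 23.1% of genes and the lowest in 22.7%, against 12.7% to 17.6% and 14.0% to 16.8% in the other libraries.

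**Figure D2:**
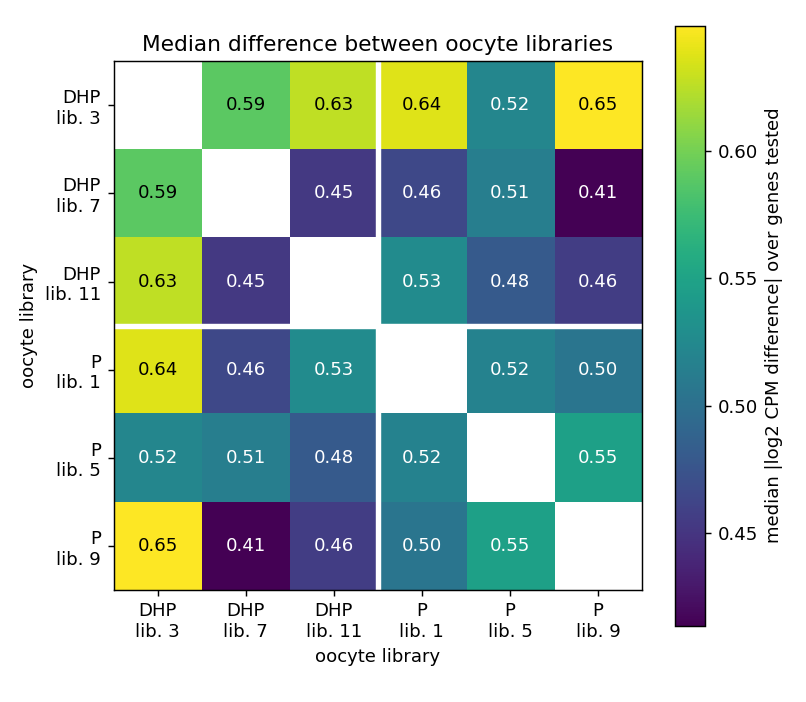
Median absolute difference in log2 CPM, counts for every 1000000 fragments, over the 16153 genes tested for each pair of oocyte libraries, with libraries before DHP above and left of those before P. The values run from 0.41 to 0.65, the row of library 3 holds the largest ones, and the blocks across the groups are no higher than those within them.

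The biological coefficient of variation, which edgeR estimates as the relative spread between libraries beyond counting error, was 40.9% in oocytes before DHP and 37.6% in oocytes before P. Within each group a gene had to pass the count filter in all 3 libraries, which left 14147 and 14251 genes. Genes near 0 in any library of the group are thus not in these values. Over the 16153 genes of the comparison, with both groups fitted, the coefficient was 45.6%. Within oocytes before DHP it was 34.2% without library 3. Eggs gave 46.8% after DHP and 35.2% after P by the same estimate, so the oocyte groups lay between the egg groups. For a gene with at least 100 normalized counts on average (9740 genes), the SD of log2 CPM (counts for every 1000000 fragments of a library) around the group means had a median of 0.42. It was over 1 in 536 of them (5.50%).

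The most variable genes were switched nearly on or off between females. LOC118227660, uncharacterized, had 0, 28.5 and 1528 normalized counts before DHP and 0, 0 and 929 before P. The eggs showed as many positive libraries, with 0, 19 and 1665 counts after DHP and 0, 0 and 686 after P. LOC118231138, an interferon-induced protein 44-like gene, had 3.74, 1.24 and 1179 before DHP and 599, 889 and 15.8 before P, with eggs at 0, 4 and 1341 after DHP and 624, 1236 and 5 after P. LOC118221348, which encodes a GTPase of the IMAP family known from lymphocytes, had 21.5, 181 and 0 before DHP and 1404, 0 and 859.6 before P. In LOC118227660 and LOC118231138, high and low females occurred in both groups. In LOC118221348 low females occurred in both groups, and the DHP libraries reached at most 181.

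Of the other variable genes, 2 were hardly found in eggs. Purine nucleoside phosphorylase 4a, encoded by pnp4a, had 10378, 27.3 and 773 before DHP and 15.4, 845 and 172 before P, and 5 counts over all eggs. The carbonic anhydrase gene cahz had 3949.6, 205 and 13.6 before DHP and 6.74, 149 and 4.52 before P, a range of 873-fold between the highest and the lowest library, and 36 egg counts, all in library 8. Library 3 was the highest for both genes, and libraries 7 and 11 changed places between them. Genes for a galectin-2-like protein (LOC118232839), a protein kinase C epsilon-like protein (LOC118221346), the vesicle-associated kinase-like protein camkva and the zinc transporter ZIP11 (LOC118221952) completed the 10 genes with the largest SD, from 3.14 to 4.97 log2 units, together with LOC118221516. Several are annotated as members of gene families. Whether reads were split between similar copies was not tested.

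**Figure D3:**
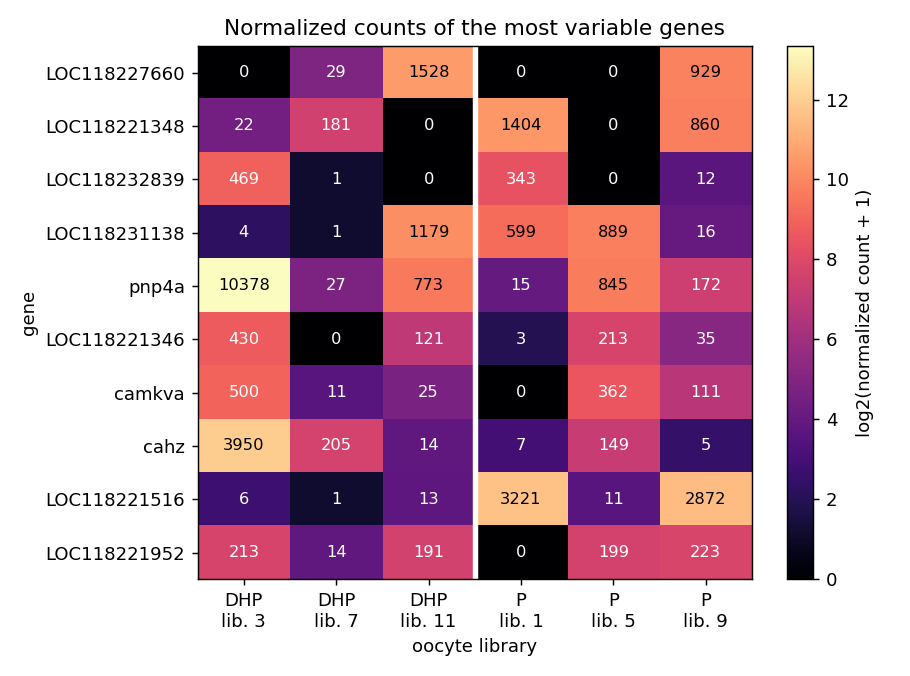
Normalized counts (numbers; colour shows log2 of the count + 1) of the 10 genes with the largest SD around the group means, with libraries before DHP left of those before P. In LOC118221516 the libraries with over 100 counts, 1 and 9, are both of the P group, and each other gene has such a library in both groups.

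On and off genes were counted next. Of 11572 genes with at least 100 normalized counts in some oocyte library, 176 (1.52%) had at most 3 counts in another. Of these 176 genes, 142 had more than 3 counts over the eggs. The library with at most 3 counts was spread over all females, with 40 such genes in library 5 at the least and 74 in library 1 at the most.

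Genes high in a single oocyte library were then read in the eggs, which were not used to choose them. A gene was taken as high in 1 library when it had at least 100 normalized counts there and at least 4 times as many as in every other oocyte library, which held for 77 genes in library 3, 14 in library 7 and 24 in library 11 before DHP, and for 14 in library 1, 21 in library 5 and 22 in library 9 before P. Of these 172 genes, 33 had at most 3 counts over all eggs. Some genes of library 3 were instead abundant in eggs of every female. LOC118230016 had 20191 to 29931 counts in each egg library and calm2a 6427 to 16544, and gmnn had 52529 over all eggs. In 53 genes 1 egg library also stood alone, with at least 20 counts and at least 4 times as many as in each other egg library. In all 53 this egg library belonged to the same arm as the oocyte library, and in 0 to the other arm. Genes of library 7 fell in egg library 8 (10 genes), those of 11 in 12 (14 genes), those of 1 in 2 (5 genes), those of 5 in 6 (6 genes) and those of 9 in 10 (5 genes). Genes of library 3 fell in egg library 4 for 9 genes and in 8 for 4. These 4 were LOC118222963, LOC118224875, LOC118229654 and cahz, and library 8 was also the egg library with the most fragments of the alpha-2-macroglobulin-like gene described below. The labels do not state which oocyte and egg libraries came from 1 female, and this pattern was used for no test.

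Named genes show the size of these differences. The gene for the neutral ceramidase asah2 had 976 normalized counts in library 7, at most 10.3 in every other oocyte library, and 214 counts in egg library 8 with 0 in the other eggs. The vascular cell adhesion protein 1-like gene LOC118216445 had 1046 in library 11, at most 23.4 elsewhere, and 1675 counts in egg library 12. Advillin, an actin-binding protein encoded by avil, had 534 in library 3 and 104 counts in egg library 4, with 0 in the other eggs.

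In the P group the same held for sv2ca, a synaptic vesicle glycoprotein, with 223 in library 1 and 235 counts in egg library 2. The gene spra, for the sepiapterin reductase of pterin synthesis, had 951 in library 9 and at most 97.4 elsewhere, with 1242 counts in egg library 10. Single genes were also low in 1 female: the cytochrome P450 2K1-like gene LOC118219613 had 231 in library 9, against 2123 to 3331 in the other oocyte libraries, and 65 counts in egg library 10. By contrast the secretagogin-like gene LOC118233159, of a calcium-binding protein, had 1470.2 in library 1 and at most 8.38 elsewhere, with only 18 counts over all eggs. LOC118221016, a brain-type fatty acid-binding protein, had 834 in library 9 and 0 counts in the eggs.

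**Figure D4:**
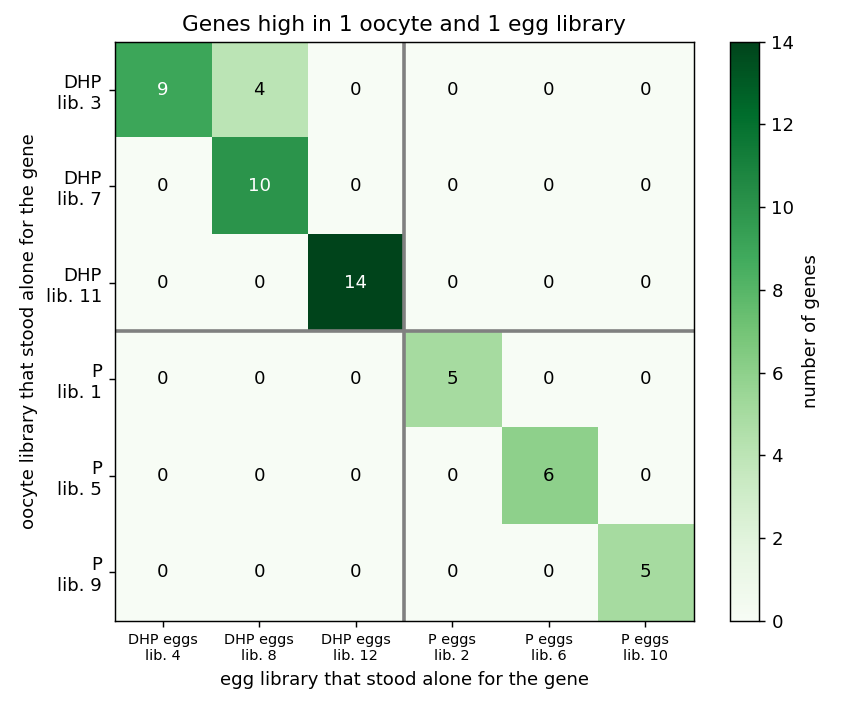
Number of genes that were at least 4 times higher in 1 oocyte library (rows, libraries before DHP above those before P) than in each other one and that also stood alone in 1 egg library (columns, eggs after DHP left of those after P). The 53 genes lie in the blocks of the same arm, 49 of them in 1 egg library for each oocyte library and 4 of library 3 in egg library 8.

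The labelled cell type was checked against genes of the oocyte. The list of oocyte and egg envelope genes summed to 7383, 9015 and 10149.9 CPM with TMM scaling before DHP and 8005, 7507 and 7919 before P, within 1.37-fold over the 6 libraries. The most abundant members were btg4, which acts in the clearance of maternal RNA, a bucky ball-like gene of germ plasm (LOC118233078), the zygote arrest gene zar1l and the meiotic kinase gene mos. For btg4 the values were 16294, 15602 and 15526 normalized counts before DHP and 13553, 12332 and 14217 before P. The mos gene varied least of the 4, between 5276 and 6272, whereas zar1l had 3527 in library 3 and 7286 to 8285 in the other libraries. The labelled oocytes thus carried their defining transcripts in every library.

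Of 42 tested members of this list, 0 were called, 7 lay higher in all DHP libraries (16.7%, against 3.73% of all genes) and 0 lower (against 4.07%). The list's median log2 fold change was 0.20, against 0.01 for all genes. Among the 7 were btg4, the oocyte growth factor gene bmp15 and 4 genes of zona pellucida proteins. One of them, LOC118213314, had 284, 1254 and 529.9 before DHP, against 201, 259 and 129 before P (1.81 ± 0.53). The zona pellucida genes together summed to 1943, 3495 and 3569 CPM before DHP, against 2527, 2032 and 2364 before P, so library 3 lay below the P group and the sums overlapped.

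Genes of meiotic maturation summed to 12163, 11737 and 13381 CPM before DHP and 11588, 8595 and 13683 before P. Eggs had 39431 to 50451 CPM of this list. The cyclin B1 gene ccnb1, whose product activates the maturation-promoting kinase, had 21188, 10096 and 9283 normalized counts before DHP and 15483, 9009 and 11747 before P. Cyclin A1 (ccna1) had 1745 in library 5 and 7585 to 9161 in the other 5 libraries. Of 18 tested members 0 were called (0% of all genes) and 0 had groups that did not overlap. Of all genes 3.73% lay higher in all DHP libraries and 4.07% lower, so few such members would occur at that share. Library 5 was the lowest of the 6 in 8 members. The stage of the oocytes was not labelled per library, and its part in these differences was not tested.

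The largest single transcript was of another kind. LOC118235858, an alpha-2-macroglobulin-like gene on chromosome 9 from 19004943 to 19043868, took 4.65%, 3.57% and 1.85% of all fragments before DHP and 2.27%, 2.39% and 4.20% before P. Libraries 3 and 9, of different groups, were the highest, and the groups overlapped throughout (log2 fold change 0.23 ± 0.37, interval -0.60 to 0.98). Egg library 8 held 2964 counts of it and the other 5 egg libraries 0 to 10 each. The other members of the family were less abundant: LOC118209050 had 1883, 288 and 4873 normalized counts before DHP and 688, 1706 and 3715 before P.

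The other abundant transcripts varied less. Those of a cathepsin S-like protease (LOC118220535), of cathepsin B (ctsba), a lysosomal protease, of cdc20, an activator of the complex that ends metaphase, and of protein B4 (LOC118211021), known in Xenopus as a linker histone of the oocyte, stayed within 1.45-fold to 2.17-fold over the 6 libraries. A cold-inducible RNA-binding protein gene (LOC118225704), hsp90ab1 and a claudin-like gene (LOC118234813) ranged by 1.39-fold to 1.47-fold, and the 28S ribosomal RNA (LOC118234779) by 2.34-fold. All of these were abundant in eggs too. The exception was the collagen alpha-2(I)-like gene LOC118214884, with 14982, 21382 and 3188 before DHP and 22795, 14149.5 and 63963 before P. Its values spread 20.1-fold, from library 11 to library 9, and eggs held 325 counts in all, of which 305 in library 8.

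Follicle genes were present in every oocyte library. Genes without counts in eggs (at most 3 over the 6 egg libraries) took 0.622%, 0.496% and 0.442% of the fragments before DHP and 0.494%, 0.482% and 0.983% before P. Library 9 was the highest, and the other 5 lay close together. This share leaves out LOC118235858 and the collagen gene LOC118214884, which had more than 3 counts over the eggs. When genes with at most 10 counts in 5 of the 6 egg libraries were taken instead, a choice made after seeing library 8, the share was 8.93%, 6.74% and 4.19% before DHP and 5.07%, 5.25% and 8.85% before P. Libraries 3 and 9 were then the highest, and the groups overlapped under both definitions. Among the genes without counts in eggs was enpp7.2, of a family that cleaves phosphodiester bonds, with 844, 201 and 883 normalized counts before DHP and 109, 642 and 18189 before P. It was 167-fold higher in library 9 than in library 1, so the high share of library 9 holds this gene. Library 9 was the highest in 6 of 10 tested granulosa genes and in 8 of 21 of gut and duct epithelium, against 15.7% of all genes. Genes without counts in eggs are thus not all follicle genes, and which cells they came from was not tested. The folate receptor gene folr had 146, 375 and 351 before DHP, against 662, 794 and 723 before P, with no overlap.

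The granulosa list summed to 225, 214.5 and 84.6 CPM before DHP and 181, 186 and 296 before P, with 0.918 to 5.05 CPM in eggs. Its most abundant member was foxl2a, the transcription factor that keeps granulosa identity, with 869.8, 827 and 295 normalized counts before DHP and 722, 858 and 892 before P. Library 11 was the lowest in 5 of 10 tested members. Of the 10 members 0 were called (0% of all genes) and none had groups without overlap. Of all genes 3.73% lay higher in all DHP libraries and 4.07% lower, so few such members would occur at that share. The aromatase gene LOC118215725, whose product makes estradiol, was low throughout, at 1.05 to 29 normalized counts.

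Steroid synthesis was the only 1 of the 16 lists whose summed level did not overlap between the groups, at 1448, 2009 and 1556 CPM before DHP, against 2133, 2241 and 2289 before P. Of single genes 3.73% lay higher in all DHP libraries and 4.07% lower. A list sum is not a single gene, so these shares are only a rough guide. The 1 such list among 16 is not read as a difference between the groups. Of 17 tested members 0 were called and 3 (17.6%, against 4.07% of all genes) lay lower in all DHP libraries. The steroid 17-alpha-hydroxylase/17,20 lyase gene LOC118218511, whose product turns progestins into androgen precursors, had 462, 2683 and 3347 normalized counts before DHP, against 5004, 3457 and 6097 before P (-1.17 ± 0.57). A 3 beta-hydroxysteroid dehydrogenase gene, LOC118214002, for the step that makes progesterone, had 523, 2047 and 1386 before DHP, against 2557, 2899 and 2379 before P (-0.99 ± 0.42). In these 2 genes library 3 was by far the lowest, and in LOC118218511 the highest DHP library, at 3347, lay close to the lowest P library, at 3457. The second dehydrogenase gene, LOC118214003, had 524, 518 and 623 before DHP, against 708, 781 and 1158 before P (-0.67 ± 0.29).

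The other members described here overlapped between the groups. The second 17-alpha-hydroxylase gene, LOC118231945, had 1206, 2671 and 603 before DHP and 2399, 3081 and 2288 before P (-0.79 ± 0.46). The 5-alpha-reductase gene srd5a1 had 189.9, 90.6 and 328 before DHP and 57.7, 111 and 82.6 before P (1.28 ± 0.51). The cholesterol side-chain cleavage gene LOC118215491, for the first step of the pathway, had 1395, 2129 and 1528 before DHP and 1600.1, 699 and 3141 before P. The cholesterol transport gene star had 42.1, 174 and 48.2 before DHP and 77.9, 151 and 165 before P. The list's median log2 fold change was -0.11, against 0.01 for all genes. The most abundant member of the summed list was hsd17b12a, an enzyme of fatty acid elongation, with 1577 to 5626 in oocytes. Eggs held 46451 counts of it in all and 911 to 1546 CPM of the list. The sum therefore does not measure the follicle alone.

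Receptors for the hormones used in the protocol overlapped between the groups, as most genes did. Of all genes 3.73% lay higher in all DHP libraries and 4.07% lower. The nuclear progesterone receptor gene pgr had 4508, 2976 and 1876 normalized counts before DHP and 1997, 2255 and 2773 before P, a log2 fold change of 0.41 ± 0.33 with an interval of -0.38 to 1.07. Its second copy, LOC118235591, had 1884, 1403 and 789.6 before DHP and 1269, 1273 and 2189.7 before P, with an interval of -1.05 to 0.57. For both genes library 11 was the lowest, and eggs held 39 and 36 counts in all, of which all 36 were in library 8.

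The luteinizing hormone receptor gene lhcgr had 507, 242 and 59.7 before DHP and 123, 262 and 102 before P, and its wide interval of -1.23 to 1.96 left large differences in either direction possible. The follicle-stimulating hormone receptor gene fshr was low, at 8.38 to 50.5. One androgen receptor-like gene, LOC118223864, had 258, 148 and 152 before DHP and 159.7, 181 and 257 before P, and the other, LOC118235897, 6.21 to 36.5. Of the prostaglandin E2 receptor EP4 genes, LOC118213447 had 2.48 to 26.2, and LOC118225928, LOC118226240 and LOC118237240 had 0 counts in the oocytes. Of 20 tested members of the receptor list 0 were called (0% of all genes) and 0 had groups that did not overlap, so few would at the share of all genes. Library 3 was the highest in 13 of them, against 23.1% of all genes. The progesterone receptor membrane component genes pgrmc1 and pgrmc2 ranged by 1.71-fold and 1.16-fold, and eggs carried both.

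Genes listed for vessels and connective tissue were at unequal levels in the libraries. The list of vascular smooth muscle and pericytes summed to 1103, 342.5 and 262 CPM before DHP and 299, 512 and 615 before P. Library 3 was the highest in 11 of 14 tested members: the smooth muscle myosin gene myh11a had 1509.5, 139 and 72.3 normalized counts before DHP and 316, 512 and 898 before P. The actin gene acta2 had 2071, 359 and 428 before DHP and 591, 819.7 and 1818 before P. The channel gene kcnj8, of pericytes and smooth muscle in vertebrates, had 899, 971 and 264 before DHP and 156, 249 and 347 before P, the smallest p of the list and still with overlap.

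The stroma and matrix list summed to 2781, 2885 and 1175 CPM before DHP and 3114, 2439 and 8436 before P, mostly from LOC118214884. The fibrillar collagen gene col1a2 ran differently from it, with 1147, 166 and 1255 normalized counts before DHP and 262, 749 and 413 before P. Library 7 was the lowest in 12 of the 24 tested members of this list, in 14 of 22 of the endothelium list and in 8 of 14 of the smooth muscle list, against 14.0% of all genes. Endothelial genes summed to 212, 136 and 247 CPM before DHP and 144.5, 208 and 176 before P. Eggs had 62.5 to 121 CPM of this list, and its most abundant member, sox17, had 385 to 603 counts in each egg library. The sum therefore does not mark vessel cells alone. The endothelial cadherin gene cdh5 had 56.1, 26.1 and 322 before DHP and 34.6, 103 and 54.3 before P. Across these 3 lists 0 members were called, 1 of 22 endothelial members lay higher in all DHP libraries (3.73% of all genes did) and 2 of 24 matrix members lower (4.07% of all genes).

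Of the blood genes, those of hemoglobin and of thrombocytes were low. The 7 hemoglobin genes of the erythrocyte list together had 5.83 to 27 CPM, although red cells of fish are rich in their transcripts. The sum of the erythrocyte list was 611, 174 and 111 CPM before DHP and 124, 109 and 136 before P, and the high value of library 3 came from cahz, whereas hemoglobins were not high there (10.8 CPM). Leukocyte genes summed to 206.5, 232 and 453 CPM before DHP and 117, 434 and 207 before P. Libraries 11 and 5 were the highest in 11 and 6 of 23 tested members, among them the actin-bundling gene lcp1, with 59.9, 108 and 399 before DHP and 41.4, 363 and 196 before P. An MHC class II gene, LOC118231319, had 26.2, 29.8 and 27.2 before DHP, against 0, 4.01 and 0 before P. Thrombocyte genes were at most 43.9 CPM in all.

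Of genes for plasma proteins, haptoglobin (hp) was the one with sizeable values, at 2824, 231 and 568 before DHP and 140.5, 942 and 359.7 before P, while 20 of the 41 listed had 0 counts. In the list for gut and duct epithelium, the most abundant members cldn7a and epcam were as abundant in eggs, so they do not mark gut or duct cells here. The keratin gene krt8 had 744, 535 and 1103 before DHP and 848, 903 and 1839 before P, with 24 egg counts, all in library 8. The intestinal-type fatty acid-binding protein gene LOC118228071 had 284, 88.1 and 1396 before DHP and 45.2, 257 and 19.2 before P. Of the 81 genes of this list 34 had 0 counts in all oocytes.

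Genes of the immediate early response, which cells switch on within minutes of a stimulus, split the libraries and not the groups. A c-Fos-like gene, LOC118217618, had 22.4, 1415 and 227 normalized counts before DHP and 74.1, 1380.4 and 154 before P. A second one, LOC118229166, had 15.9, 912 and 266 before DHP and 51, 1368 and 152 before P. In both, library 7 of the DHP group and library 5 of the P group were the highest. The list summed to 630.1, 1396 and 947 CPM before DHP and 587, 2068 and 704 before P, and library 5 was the highest in 18 of 30 tested members. The heat shock genes of the list that are named here were highest in library 5. An HSP 90-alpha gene chosen after its values were seen, LOC118229338, had 1505 in library 5 and 69.3 to 400.1 in the others. The gene hspa1b had 216 in library 5 and at most 14.4 in the others, with 3.72 in library 7. By contrast hsp90ab1, which is not in this list, had 29167 in library 5 and 30621 in library 1. Of the 30 members 0 were called (0% of all genes) and 0 had groups that did not overlap. Of all genes 3.73% lay higher in all DHP libraries and 4.07% lower, so few such members would occur at that share.

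Genes of ovulation and matrix remodelling had 608, 298 and 360.3 CPM before DHP and 383, 462 and 413 before P. The tissue plasminogen activator gene plat, whose protease helps to break down the follicle wall in vertebrates, had 527, 262 and 98.4 normalized counts before DHP and 81.8, 133 and 91.6 before P (1.53 ± 0.56), with overlap. The prostaglandin synthase gene LOC118213010 stayed between 770.2 and 1127. Over all 16 lists 0 members were called. The sums of 10 lists differed by more than 2-fold between the highest and the lowest library, and 7 lists were highest in library 3.

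**Figure D5:**
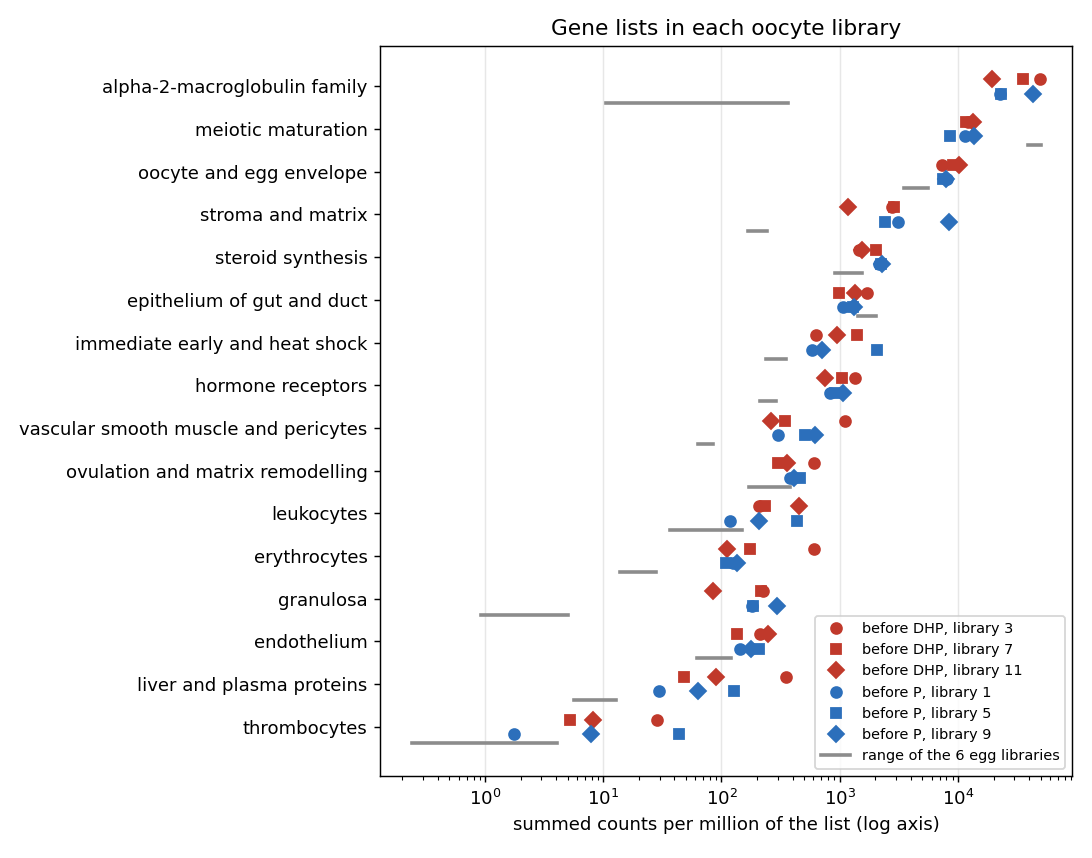
Summed CPM (log axis) of the 16 gene lists in each oocyte library, with libraries before DHP above those before P in each row, and grey bars for the range of the 6 egg libraries. Only the steroid synthesis list, 1 of 16, has groups without overlap (of single genes 3.73% lay higher in all DHP libraries and 4.07% lower). Granulosa genes sum to 84.6 to 296 CPM in oocytes, against 0.918 to 5.05 CPM in eggs.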

How the data were processed

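Poly(A) RNA of 12 libraries was sequenced with a stranded kit, 2 reads a fragment. The values used are fragment counts per gene as deposited. According to the submitters' processing notes and the methods, the authors aligned reads with TopHat 2.0.13 to fAngAng1.pri, removed secondary alignments with SAMtools 1.2 and counted with HTSeq 0.6.1p1. How HTSeq treated strand is not stated in what was used here, so overlapping and antisense genes cannot be told apart from their partners. The authors' fold changes and p-values (DESeq) were not used, and 0 columns of counts of other samples were found. Of 31061 genes, 24649 had a count in an oocyte library, and all 29999 gene IDs matched the RefSeq gene table, whose fAngAng1.pri coordinates are printed.

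The oocyte groups (3 and 3 libraries) were compared with edgeR 4.0.16 (TMM, filterByExpr with a minimum count of 10 and total of 15, quasi-likelihood test, Benjamini-Hochberg) in R 4.3.3, at an adjusted p under 0.01. Intervals were computed by voom in limma 3.58.1. The SE printed with a log2 fold change was instead derived from edgeR, as its absolute value divided by the square root of the quasi-likelihood F statistic. SE and interval thus come from different models and need not match. DESeq2 1.42.0 served as an alternative. Tables were made with Python 3.11.15. The code was tested on simulated data. Count columns name a group and a library number, not a replicate. Libraries of a group were from different females according to the methods. Counts are of reads without molecular identifiers, and counting error is only part of their spread.

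Named genes are the 5 per direction with the smallest p at a mean of at least 50 normalized counts, the 10 with the most fragments, the 10 with the largest SD at a mean of at least 100, up to 4 members a list by mean and the one with the smallest p, and the receptors the study measured by qPCR. Genes of 1 library, other list members and further genes named were chosen after their values were seen. The members and the gene lists were chosen with earlier results of these data known. Alternatives were RLE scaling, total counts, other filters, DESeq2, limma-voom, 1 fit of all 12 libraries, an adjusted p under 0.05 and each library left out.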

Additional observations from a re-analysis of the deposited data

How the results depend on the processing

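The count of 0 genes was also found with RLE scaling, total counts, both other filters, limma-voom, 1 fit of all 12 libraries and an adjusted p under 0.05. DESeq2 called 10, and leaving out 1 library gave 0 to 2, with 2 (LOC118221515 and LOC118221516) without library 5. With no filter, 4 genes passed 0.05. Genes with an interval within 1 log2 unit numbered 2301 to 3536 with 1 library left out, which has fewer samples, and 4212 with all. The coefficient of variation was 0.342 to 0.441 before DHP and 0.357 to 0.398 before P with 1 library left out. The mean share of fragments in genes without counts in eggs, 0.52% before DHP and 0.653% before P, was 0.172% and 0.197% with no egg count allowed, 1.04% and 1.13% with at most 10, and 6.62% and 6.39% with at most 10 in 5 of 6 egg libraries, a wider set of genes. Without library 3, chosen after seeing the data, the groups did not overlap in 1396 genes higher (8.64%) and 1343 lower (8.31%) before DHP, as fewer libraries have to be separated. At 8 times instead of 4, 68 genes were high in 1 oocyte library, and in all 32 that also stood alone in an egg library it was of the same arm. The 10 genes with the smallest p, which were chosen for their contrast in these data, passed the threshold in 9 of 130 combinations of a gene and a refit. All 9 were in DESeq2 or in the refit without library 5. No paired analysis was possible because the count columns carry library numbers and no replicate numbers, and the groups are different females. The limits set by depth and by 3 females a group were not compared.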
